A study of Mus musculus with 16 samples.

Results

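Trem2 and 9 other genes of lipid-handling macrophages (Gpnmb, Spp1, Cd36, Lpl, Fabp5, Ctsk, Atp6v0d2, Apoe and Ch25h) were followed in mouse lung across age, diphtheria toxin (DT) treatment and genotype. They were found by the gene name printed in the array files, and they are 10 of the 25574 genes measured. The members were chosen by their levels on these same arrays, the log2 signal over the 75th percentile in the 5 groups, so the members' own differences are given as a description, with the spread between arrays and no p-value.

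Total RNA of whole homogenised lung of female mice was hybridised to 16 Agilent arrays in a single colour, each sample on an array of its own. In the ARF-DTR line the promoter of Arf, a tumour suppressor transcript of the Cdkn2a locus that accumulates in senescent cells, drives a receptor that makes mouse cells sensitive to the toxin. The 5 groups were untreated ARF-DTR mice of 2 months (n = 4), ARF-DTR mice of 12 months given PBS (n = 4) or DT (n = 4), and wild type mice of 12 months given PBS (n = 2) or DT (n = 2). Injections were intraperitoneal, 2 weeks apart over 1 month, with 50 micrograms of DT per kg of body weight. The wild type groups carry no transgene and serve to show what DT does without its receptor. The comparisons ask what differs between young and 12-month lung, what DT changes in ARF-DTR lung, and whether the same change occurs in wild type lung.

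Trem2 is a receptor of the immunoglobulin family on macrophages that binds phospholipids, apolipoproteins and cell debris and signals through the adaptor Tyrobp and the kinase Syk. Macrophages that take up much lipid express a shared set of genes for its capture (Cd36, Lpl), binding and export (Fabp5, Apoe) and lysosomal breakdown, together with the glycoprotein Gpnmb and the secreted phosphoprotein Spp1. In the lung, alveolar macrophages clear the lipids of surfactant, and Ch25h, an enzyme that turns cholesterol into an oxysterol, is induced in macrophages by interferon and other inflammatory signals.

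All levels below are log2 signals relative to the 75th percentile of the same array, so a level of 0 equals that percentile. A level belongs to 1 probe and is compared between arrays, never between genes. The 12 probes of the 10 members were well above background on all 16 arrays. The arrays lay on 2 slides, the 2-month and ARF-DTR PBS groups on slide 1 and the ARF-DTR DT group and both wild type groups on slide 2. The 75th percentile was 873 to 1088 intensity units on slide 1 and 613 to 725 on slide 2. DT against PBS in ARF-DTR therefore also compares the slides, and slide and treatment cannot be told apart there. DT-treated ARF-DTR against 2-month lung likewise sets slide 2 against slide 1, with age and treatment differing together. ARF-DTR PBS against wild type PBS crosses the slides too. Age and DT in wild type were compared within 1 slide, and so was DT-treated ARF-DTR against wild type PBS, which differ in genotype as well. By the array barcodes, the 2-month and ARF-DTR DT groups lay in row 1 of their slides and the other groups in row 2. Row therefore cannot be told apart from age, or from the difference of DT-treated ARF-DTR to either wild type group. Both wild type groups shared a row. The 2-month mice were untreated and the 12-month mice were injected with PBS, so injection cannot be told apart from age either. Differences given below as with age are those of this comparison. A pair of arrays stood apart in the members. Wild type DT replicate 1 had the highest level of all 16 arrays in 7 of the 10 members and was among the top 2 in 10 of 10, and ARF-DTR PBS replicate 4 was the highest of its group in 6. Each printed call that was lost without both of them is marked as such, an alternative added after seeing the data. The free-text label of wild type PBS replicate 1 speaks of DT, against its title and source name, while for wild type DT this label names no toxin. Titles and source names set the groups here. The lung markers of alveolar type 2 cells (Sftpc, Sftpb, Lamp3 and Abca3) were all measured, at a summed signal of 736 to 1152 times the 75th percentile over the 16 arrays.

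RefSeq promoter windows of the mouse build GRCm38.p6, from 250 bases before to 50 bases after the transcript start, were at hand for 7 of the 10 members. The 4 windows below are shown because Trem2, Gpnmb and Ctsk moved together over the arrays while Ch25h did not. They are written 5′ to 3′ on the gene's strand, and capitals mark matches to the motifs named after them.
Trem2, chr17:48346151-48346450, plus strand: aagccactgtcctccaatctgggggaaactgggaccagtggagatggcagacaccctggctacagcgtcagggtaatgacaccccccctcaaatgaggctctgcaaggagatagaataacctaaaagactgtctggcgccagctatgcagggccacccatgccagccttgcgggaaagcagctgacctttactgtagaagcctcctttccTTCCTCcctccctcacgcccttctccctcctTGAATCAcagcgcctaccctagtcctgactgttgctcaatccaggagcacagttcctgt
Gpnmb, chr6:49036268-49036567, plus strand: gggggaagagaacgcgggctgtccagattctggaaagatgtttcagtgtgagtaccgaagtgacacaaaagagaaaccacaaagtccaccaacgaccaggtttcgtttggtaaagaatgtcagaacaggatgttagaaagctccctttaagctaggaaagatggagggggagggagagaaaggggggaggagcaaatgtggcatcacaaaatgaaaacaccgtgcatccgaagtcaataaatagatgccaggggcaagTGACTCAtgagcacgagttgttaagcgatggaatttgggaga
Ctsk, chr3:95498960-95499259, plus strand: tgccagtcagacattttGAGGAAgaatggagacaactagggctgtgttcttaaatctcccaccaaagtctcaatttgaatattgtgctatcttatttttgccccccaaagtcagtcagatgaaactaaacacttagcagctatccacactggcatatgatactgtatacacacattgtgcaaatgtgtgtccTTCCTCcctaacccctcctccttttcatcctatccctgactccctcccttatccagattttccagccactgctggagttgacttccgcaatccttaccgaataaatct
Ch25h, chr19:34475099-34475398, minus strand: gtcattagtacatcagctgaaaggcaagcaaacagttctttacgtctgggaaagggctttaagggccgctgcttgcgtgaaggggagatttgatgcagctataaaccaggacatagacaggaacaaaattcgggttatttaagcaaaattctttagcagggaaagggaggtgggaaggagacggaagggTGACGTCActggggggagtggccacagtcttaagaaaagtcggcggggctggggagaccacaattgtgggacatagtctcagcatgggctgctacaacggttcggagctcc
Searched on both strands were the AP-1 motif TGANTCA, the PU.1 core GAGGAA, the E-box CACGTG and the M-box CATGTG of MiT/TFE factors, and the cyclic AMP response element TGACGTCA, which was added after the Ch25h window had been read. AP-1 letters began at base 242 of the Trem2 window and at base 259 of the Gpnmb window, and 7.81% of all 32851 windows hold such a match. The PU.1 core began at base 211 in Trem2, on the opposite strand. In Ctsk it began at base 18 and, on the opposite strand, at base 193. It was also in windows of Spp1 and Apoe, which are not shown, and 28.3% of all windows hold it. The cyclic AMP response element began at base 190 of the Ch25h window and is in 1.79% of windows. CACGTG (7.15% of windows) and CATGTG (14.2%) did not occur in the windows of the 7 members. A match says only that the letters are there.

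DT-treated lungs had more signal for most members than PBS-treated lungs, in ARF-DTR and in wild type mice. In ARF-DTR lung, 5 of the 10 members (Trem2, Atp6v0d2, Apoe, Lpl and Cd36) were past the call of the fit, higher with DT, where 15.9% of all genes were called higher. Groups did not overlap in 5 members, higher with DT (Trem2, Spp1, Cd36, Lpl and Apoe), where 15.8% of all genes did so. The median log2 difference of the members was 0.51 against 0.00 for all genes. In wild type lung the members' median was 0.74 against -0.02. Only Ch25h was past the call there, higher with DT, where 0.0547% of all genes were called higher, and 7 of the 10 members had both DT arrays above both PBS arrays, where 18.8% of all genes did. Between DT-treated ARF-DTR and wild type PBS lungs of the same slide, the members Trem2 and Apoe were past the call, higher (2.12% of all genes), and 7 members had groups that did not overlap in that direction (16.1% of all genes). With age, Spp1 was past the call, higher (2.73% of all genes), and Cd36, lower (3.41%). Spp1 and Apoe were higher at 12 months with no overlap (5.01% of all genes) and Cd36 lower with no overlap (7.96%). DT-treated 12-month against 2-month lung, which also compares the slides, had 6 members called higher (14.8% of all genes). These were Trem2, Spp1, Ctsk, Atp6v0d2, Apoe and Lpl. No inference is drawn from these counts, because the members were chosen with the comparisons known. The comparisons share groups, so they are not independent of each other. In RNA of whole lung, more cells of a type and more RNA per cell cannot be told apart. The split of all called genes depends on the scaling. DT in ARF-DTR gave 4056 higher and 3445 lower genes with the 75th percentile, and 8673 higher and 1751 lower with scaling to the array median, which moves the median of all genes to 0.18.

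**Figure D1:**
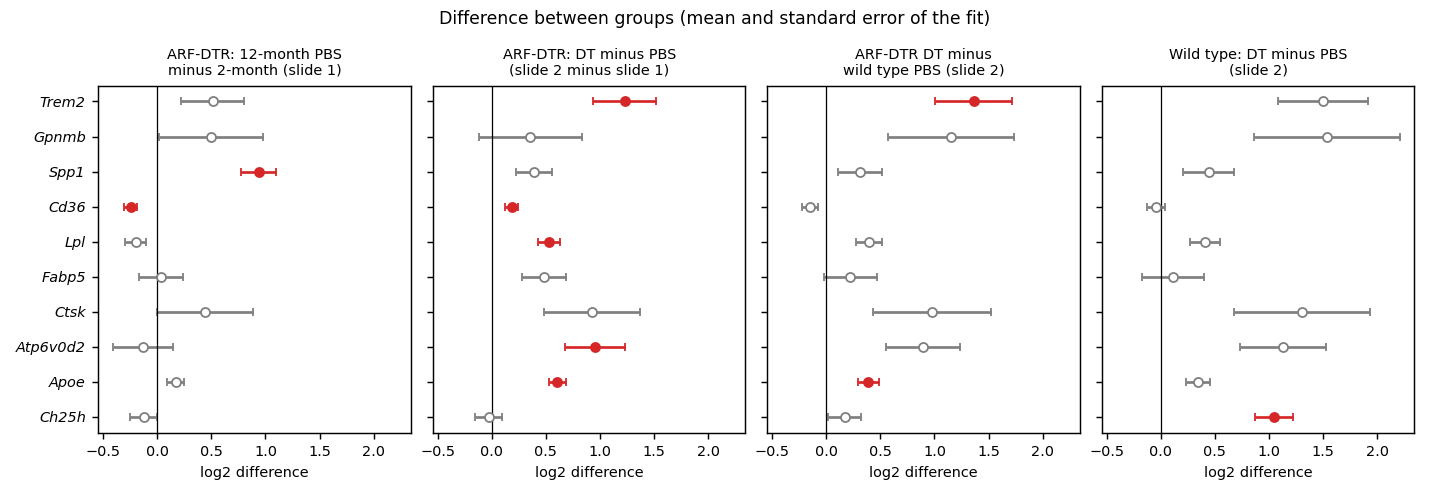
Log2 difference between groups for the 10 genes, 1 panel per comparison, with the standard error of the fit as a bar. Filled red points are past the call of the fit across all genes and open grey points are not. Trem2 lies at 1.23 for DT in ARF-DTR, 1.36 against wild type PBS and 1.50 for DT in wild type, and Ch25h stands at 1.05 in wild type and near 0 in the other panels.

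Trem2, the receptor, was measured by a probe at chromosome 17, 48491537 to 48491596 of mm9. In 2-month lungs its level was 0.88, 0.70, 0.51 and 0.38, and in 12-month ARF-DTR lungs given PBS it was 1.1, 0.94, 0.66 and 1.82. With DT the ARF-DTR lungs had 2.44, 1.85, 2.69 and 2.46. Every DT array thus lay above every PBS array of the line, the narrowest gap being between DT replicate 2 and PBS replicate 4. In wild type lungs the level was 1.12 and 0.87 with PBS and 3.17 and 1.82 with DT, so that the groups did not overlap there either. The group means were, from the highest, 2.49 ± 0.95 (SD, n = 2) in wild type DT, 2.36 ± 0.36 (SD, n = 4) in ARF-DTR DT, 1.13 ± 0.49 (SD, n = 4) in ARF-DTR PBS, 1.0 ± 0.18 (SD, n = 2) in wild type PBS and 0.62 ± 0.22 (SD, n = 4) at 2 months. Only the step from ARF-DTR DT to ARF-DTR PBS separated neighbours in this order, and the ranges of all other neighbours overlapped. DT against PBS was 1.23 ± 0.29 (log2 difference and its standard error) in ARF-DTR, or 2.34-fold, and 1.50 ± 0.41 in wild type, or 2.82-fold. The DT response differed between the genotypes by -0.27 ± 0.51, which was within its error. DT-treated ARF-DTR lungs exceeded wild type PBS lungs of their slide by 1.36 ± 0.36. The age difference of 0.51 ± 0.29 came down to 0.28 when PBS replicate 4 was left out. Without wild type DT replicate 1 the wild type difference in Trem2 was 0.83.

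**Figure D2:**
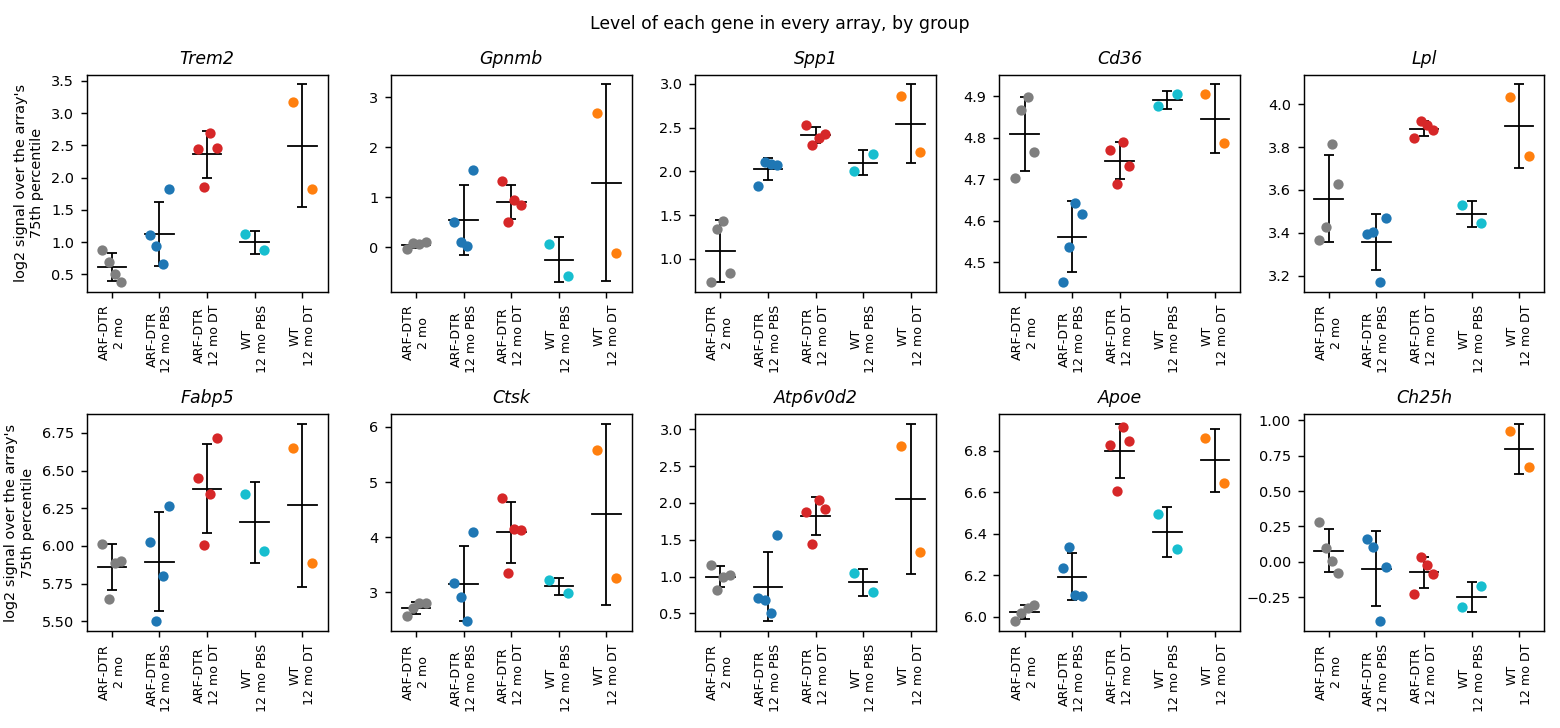
Level of each of the 10 genes (log2 signal over the 75th percentile of the array) in every array, by group, with 1 point per array. Horizontal lines are group means and bars are the SD (n = 4 or n = 2). The y axes differ between panels. In the Trem2 panel the 4 ARF-DTR DT arrays sit between 1.85 and 2.69, above the 4 PBS arrays, and in the Ch25h panel the 2 wild type DT arrays stand at 0.92 and 0.67, above all other arrays.

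Of 16 genes of the Trem2 complex and its signalling, 3 (18.8%) rose with DT in ARF-DTR lung, where 15.9% of all genes were called higher, and 13 were not called, with a median of 0.05. Tyrobp, the adaptor that pairs with Trem2, rose by 0.53 ± 0.11 (limma, Benjamini-Hochberg adjusted p = 0.00373). Its levels were 4.83, 4.78, 4.79 and 4.99 with PBS and 5.23, 5.21, 5.63 and 5.44 with DT. Tyrobp did not part from wild type PBS lung on the same slide, where it stood at 5.37 and 5.51 (difference -0.07, adjusted p = 0.816). Pik3cg, a phosphoinositide 3-kinase subunit of leukocytes, rose by 0.42 ± 0.14 (adjusted p = 0.037). Adam10, a protease that sheds surface proteins, rose by 0.23 ± 0.06 (adjusted p = 0.0115). With age, 2 of the 16 rose. Syk, the kinase downstream of Tyrobp, rose by 0.48 ± 0.07 (adjusted p = 0.00103), from 1.89, 1.89, 1.68 and 1.79 at 2 months to 2.32, 2.15, 2.41 and 2.31 at 12 months with PBS. DT left Syk within its spread in ARF-DTR lung (-0.05, adjusted p = 0.609). Vav1, an exchange factor of leukocyte signalling, rose with age by 0.25 ± 0.07 (adjusted p = 0.0486). The Vav1 call was lost without the pair of arrays (0.24, adjusted p = 0.134). The lists of other genes were also drawn up with earlier results of these arrays known.

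Gpnmb, a transmembrane glycoprotein of phagocytes, was read by a probe at chromosome 6, 49006386 to 49006445 of mm9. Its level was -0.04, 0.09, 0.06 and 0.10 at 2 months, so the young lungs were alike. In 12-month ARF-DTR lungs it was 0.50, 0.11, 0.03 and 1.55 with PBS and 1.32, 0.51, 0.95 and 0.84 with DT. PBS replicate 4 was above every DT array of the line, and the groups overlapped. In wild type the level was 0.07 and -0.57 with PBS, and 2.68 and -0.11 with DT, so that a single array carried the wild type mean of 1.29 ± 1.97 (SD, n = 2). The DT difference was 0.36 ± 0.48 in ARF-DTR and 1.54 ± 0.68 in wild type. Leaving out PBS replicate 4 and wild type DT replicate 1, which was added after seeing the data, turned these into 0.69, then past the call, and 0.14. Against wild type PBS, DT-treated ARF-DTR lungs were higher by 1.15 ± 0.58, with 4 of 4 arrays above both wild type PBS arrays. All neighbouring groups overlapped in the order of their Gpnmb means.

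Spp1, or osteopontin, a secreted ligand of integrins and Cd44, was read at chromosome 5, 104868502 to 104868561 of mm9, and it was the member with the largest age difference. Its level was 0.73, 1.34, 1.43 and 0.84 at 2 months and 1.83, 2.10, 2.09 and 2.07 at 12 months with PBS. All 12-month arrays lay above all young arrays, by 0.94 ± 0.16 or 1.91-fold. With DT the ARF-DTR lungs had 2.53, 2.31, 2.38 and 2.43, again above every PBS array, by 0.39 ± 0.16. Wild type lungs had 2.00 and 2.20 with PBS and 2.86 and 2.22 with DT, a difference of 0.44 ± 0.23 that fell to 0.12 without DT replicate 1. On the same slide the DT-treated ARF-DTR arrays exceeded both wild type PBS arrays, by 0.31 ± 0.20. Among all 5 groups the ranges of ARF-DTR DT and wild type PBS, and of ARF-DTR PBS and 2 months, were separate in the order of the means. Without PBS replicate 4 the age difference was 0.92.

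Of 12 receptors and proteases of osteopontin, 4 (33.3%) rose with DT in ARF-DTR lung, where 15.9% of all genes were called higher, and 8 were not called, with a median of 0.02. Cd44, the hyaluronan receptor that also binds osteopontin, rose by 0.55 ± 0.10 (limma, adjusted p = 0.00203). Integrin subunits made up the other 3. Itga9 rose by 0.48 ± 0.11 (adjusted p = 0.00674), Itgav by 0.37 ± 0.11 (adjusted p = 0.0178) and Itgb1 by 0.21 ± 0.06 (adjusted p = 0.0216). With age Itga9 was the 1 gene of the list that passed, and it fell by 0.52 on the log2 scale (adjusted p = 0.0136). Against wild type PBS on the same slide the 1 gene that passed was Itga5, higher in DT-treated ARF-DTR lung by 0.82 ± 0.20 (adjusted p = 0.0302). Without the pair of arrays that stood apart, 3 of the 12 were higher with DT in ARF-DTR lung, and the Itgav call was lost (0.35, adjusted p = 0.0517).

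Cd36, the scavenger receptor that imports long-chain fatty acids and oxidised lipoproteins, was read at chromosome 5, 17288600 to 17288659 of mm9. Its level ran from 4.70 to 4.90 at 2 months, from 4.45 to 4.64 in ARF-DTR PBS, from 4.69 to 4.79 in ARF-DTR DT, from 4.88 to 4.90 in wild type PBS and from 4.79 to 4.90 in wild type DT. The 4 ARF-DTR PBS arrays were the lowest 4 of the 16. They differed from the 2-month arrays by -0.25 ± 0.06, and by -0.26, no longer past the call, without the pair of arrays. The ARF-DTR DT arrays exceeded them by 0.18 ± 0.06. Their difference from wild type PBS, on the other slide, was -0.33 ± 0.07, past the call, where 12.7% of all genes were called lower. The Cd36 difference with DT in ARF-DTR ranged from 0.02 with quantile normalisation to 0.36 with scaling to the array median, so its size rests on the scaling. In wild type lung the difference was -0.04 ± 0.09, and it turned to 0.03 with scaling to the median.

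Lpl, the lipase that releases fatty acids from triglyceride-rich lipoproteins, had 2 probes on chromosome 8 of mm9, of which the brighter lies at 71430267 to 71430326. At 2 months the level was 3.36, 3.43, 3.81 and 3.63. In 12-month ARF-DTR lungs it was 3.39, 3.40, 3.17 and 3.47 with PBS and 3.84, 3.92, 3.90 and 3.88 with DT. The DT arrays were within 0.08 of each other and above all PBS arrays, by 0.53 ± 0.10 or 1.44-fold. The wild type levels were 3.53 and 3.45 with PBS and 4.04 and 3.76 with DT, which did not overlap and differed by 0.41 ± 0.14. DT-treated ARF-DTR lungs exceeded wild type PBS by 0.40 ± 0.12 on the same slide, again without overlap. The second Lpl probe, at 71425050 to 71425109, gave differences of 0.57 in ARF-DTR lung and 0.56 in wild type lung. The age difference was -0.20 ± 0.10 with the first probe and -0.23 with the second.

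Among 28 other genes of lipid uptake, efflux and storage, 10 rose and 2 fell with DT in ARF-DTR lung (42.9% called, against 29.3% of all genes), and 16 were not called, with a median of 0.18. Apoc1, an apolipoprotein made by macrophages and liver, rose most, by 1.07 ± 0.18 (limma, adjusted p = 0.00138), from 3.44, 3.44, 3.57 and 4.15 with PBS to 4.78, 4.55, 4.96 and 4.61 with DT. Next came the oxidised lipoprotein receptor Olr1 (0.79 ± 0.25, adjusted p = 0.0332) and the scavenger receptor Msr1 (0.65 ± 0.18, adjusted p = 0.0156). Npc2, which carries cholesterol out of the lysosome, rose by 0.60 ± 0.12 (adjusted p = 0.00365). Its partner Npc1 was the 1 gene of the list that passed against wild type PBS on the same slide, with levels of 0.46, 0.48, 0.46 and 0.55 in DT-treated ARF-DTR lung and -0.16 and -0.27 in wild type PBS (0.70 ± 0.15, adjusted p = 0.0224). With age 3 of the 28 fell. Scarb1, the receptor of high-density lipoprotein, fell by 0.54 on the log2 scale (adjusted p = 0.0118). Vldlr, a lipoprotein receptor, fell by 0.34 (adjusted p = 0.00558) and Gpihbp1, the endothelial anchor of Lpl, by 0.27 (adjusted p = 0.0468). The Gpihbp1 call was lost without the pair of arrays (-0.26, adjusted p = 0.111). Without the pair of arrays, 12 of the 28 were higher and 2 lower with DT in ARF-DTR lung.

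Fabp5, a cytosolic carrier of fatty acids, was read at chromosome 3, 10016185 to 10016244 of mm9, and its groups overlapped throughout. The level ran from 5.65 to 6.01 at 2 months, from 5.50 to 6.26 in ARF-DTR PBS and from 6.01 to 6.72 in ARF-DTR DT. Wild type lungs had 6.34 and 5.97 with PBS, and 6.65 and 5.89 with DT. The DT difference of 0.48 ± 0.20 in ARF-DTR was 0.61, and past the call, without the pair of arrays that stood apart, and the wild type difference of 0.11 ± 0.28 turned to -0.27.

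Apoe, the apolipoprotein that carries cholesterol out of macrophages and binds Trem2, was averaged over 10 spots of a probe at chromosome 7, 20281732 to 20281791 of mm9. Its level was 5.98, 6.02, 6.04 and 6.06 at 2 months. In 12-month ARF-DTR lungs it was 6.23, 6.34, 6.11 and 6.10 with PBS and 6.83, 6.61, 6.91 and 6.85 with DT. The 3 ARF-DTR groups did not overlap and were higher in that order, by 0.17 ± 0.08 and then by 0.61 ± 0.08. Wild type lungs had 6.49 and 6.33 with PBS and 6.86 and 6.65 with DT, a difference of 0.34 ± 0.11 with no overlap. DT-treated ARF-DTR lungs exceeded wild type PBS on the same slide by 0.39 ± 0.10, also with no overlap and past the call. The Apoe difference with DT in ARF-DTR ranged from 0.57 to 0.67 when each array was left out in turn. It ranged from 0.32 with quantile normalisation to 0.78 with scaling to the array median.

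Ctsk, the lysosomal cysteine protease that degrades collagen in osteoclasts, was read at chromosome 3, 95313165 to 95313224 of mm9. The level was 2.57, 2.72, 2.80 and 2.80 at 2 months. In 12-month ARF-DTR lungs it was 3.16, 2.91, 2.47 and 4.09 with PBS and 4.70, 3.35, 4.15 and 4.14 with DT. PBS replicate 4 lay among the DT arrays, and the other 3 PBS arrays lay below all of them. For wild type the levels were 3.22 and 3.00 with PBS and 5.58 and 3.26 with DT, so that replicate 1 with DT stood far above the other 3. The DT difference was 0.93 ± 0.44 in ARF-DTR and 1.31 ± 0.63 in wild type. Without the pair of arrays that stood apart it was 1.24, past the call, in ARF-DTR and 0.15 in wild type. DT-treated ARF-DTR lungs had 4 of 4 arrays above both wild type PBS arrays, by 0.98 ± 0.54. They also exceeded the 2-month lungs, which lay on the other slide, with no overlap, by 1.36 ± 0.44 or 2.58-fold.

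Atp6v0d2, a subunit of the proton pump of lysosomes that is enriched in osteoclasts and alveolar macrophages, had 2 probes on chromosome 4 of mm9, the brighter at 19805367 to 19805426. Its level was 1.16, 0.81, 0.99 and 1.02 at 2 months. In 12-month ARF-DTR lungs it was 0.70, 0.68, 0.51 and 1.56 with PBS and 1.87, 1.45, 2.04 and 1.92 with DT. PBS replicate 4 again lay within the DT range, while the other 3 PBS arrays were the lowest 3 of the 16. Wild type lungs had 1.05 and 0.80 with PBS and 2.77 and 1.33 with DT. The DT difference was 0.95 ± 0.28 in ARF-DTR, or 1.94-fold, and 1.13 ± 0.40 in wild type, which came down to 0.41 without DT replicate 1. The second probe, at 19804304 to 19804363, gave 0.58 in ARF-DTR and 1.22 in wild type. Its age difference was 0.09 against -0.13 ± 0.28 with the first probe, so the probes differed in sign where the difference was within its error.

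For DT in ARF-DTR lung, the lysosome had the largest share of called genes among the 8 pathway lists. Of 26 genes of lysosomal enzymes and the proton pump, 15 (57.7%) rose, where 15.9% of all genes were called higher, and 11 were not called, with a median of 0.27. Cathepsins and a lysosomal membrane protein led. Ctss rose by 0.71 ± 0.17 (limma, adjusted p = 0.00837), from 5.76, 5.57, 5.54 and 6.06 to 6.50, 6.02, 6.64 and 6.59. Ctsd rose by 0.70 ± 0.22 (adjusted p = 0.0292), Cd63 by 0.57 ± 0.12 (adjusted p = 0.00407) and Ctsz by 0.48 ± 0.12 (adjusted p = 0.0127). Against wild type PBS on the same slide 1 of the 26 passed. This was Hexa, a subunit of the enzyme that breaks down gangliosides, higher by 0.45 ± 0.10 (adjusted p = 0.0249). With age none of the 26 passed limma's adjusted test, and 2 had an unadjusted p under 0.05. Of 14 osteoclast genes, 3 rose and 1 fell with DT in ARF-DTR lung (28.6% called), near the 29.3% of all genes. Dcstamp, a fusion protein of osteoclasts, rose by 0.60 ± 0.19 (adjusted p = 0.032), Itgav as given above, and Ostm1 by 0.29 ± 0.06 (adjusted p = 0.00319). Oscar, an immune receptor of osteoclasts, fell by 0.44 (adjusted p = 0.0228), a call that was lost without the pair of arrays (-0.39, adjusted p = 0.0672).

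Ch25h, the cholesterol 25-hydroxylase, was read at chromosome 19, 34548720 to 34548779 of mm9. It was the only member past the call for a genotype difference in the DT response. Its level was 0.28, 0.10, 0.01 and -0.08 at 2 months. In 12-month ARF-DTR lungs it was 0.16, 0.11, -0.42 and -0.04 with PBS and -0.22, 0.03, -0.02 and -0.09 with DT, so that the 3 ARF-DTR groups overlapped. In wild type lungs it was -0.32 and -0.17 with PBS and 0.92 and 0.67 with DT. Both wild type DT arrays stood above all other 14 arrays, and the rest of the groups overlapped in the order of their means. DT against PBS was 1.05 ± 0.17 in wild type, or 2.06-fold, and -0.03 ± 0.12 in ARF-DTR. The difference between these responses was -1.07 ± 0.21 (ARF-DTR minus wild type), past the call for this member alone, where 1.26% of all genes were called lower. Among DT-treated lungs of the same slide, ARF-DTR differed from wild type by -0.87 ± 0.15, past the call, where 0.301% of all genes were called lower. The response in wild type remained at 0.92 without DT replicate 1, but it was then no longer past the call, and neither were the difference between the responses (-0.94 without both arrays) and that between the DT-treated genotypes (-0.75). Over 27 settings these calls held in 16, 21 and 22, with the sign kept in all. The first 2 calls were also lost without either wild type PBS array and with scaling to the array median.

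Of 7 other genes that make or read oxysterols, 2 (28.6%) rose with DT in ARF-DTR lung, where 15.9% of all genes were called higher, and 5 were not called. Cyp7b1, which hydroxylates the product of Ch25h for breakdown, rose by 0.48 ± 0.11 (limma, adjusted p = 0.00556), from 0.33, 0.33, 0.17 and 0.33 to 0.63, 0.55, 1.07 and 0.83. Hsd3b7, an enzyme of the same route, rose by 0.24 ± 0.08 (adjusted p = 0.0403). With age 1 of the 7 passed. Gpr183, the receptor of the oxysterol made in that route, rose by 0.47 ± 0.11 (adjusted p = 0.0194), from -1.45, -1.51, -1.68 and -1.76 to -1.05, -1.34, -1.10 and -1.04. Without the pair of arrays 0 of the 7 were called with age by limma, and Gpr183 was at 0.44 (adjusted p = 0.0704). Among 20 nuclear receptors and sterol-sensing genes, 2 rose and 1 fell with DT in ARF-DTR lung (15.0% called), below the 29.3% of all genes. Lpcat3, a phospholipid-remodelling enzyme under liver X receptors, rose by 0.49 ± 0.08 (adjusted p = 0.00111), and it was also higher than in wild type PBS on the same slide (0.42 ± 0.10, adjusted p = 0.0299). Pparg, the fatty acid receptor that alveolar macrophages depend on, rose by 0.34 ± 0.12 (adjusted p = 0.0491). Ppara, a receptor of fatty acid oxidation, fell by 0.57 (adjusted p = 0.012). Mylip, which marks lipoprotein receptors for degradation, was lower than in wild type PBS (-0.36 ± 0.09, adjusted p = 0.0448). With age Nr1h3, a liver X receptor, was the 1 gene that passed, and it fell by 0.25 (adjusted p = 0.0338). This call too was lost without the pair of arrays (-0.26, adjusted p = 0.0619).

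Other genes of the lipid-associated macrophage program were also measured. Of 22, 9 rose and 1 fell with DT in ARF-DTR lung (45.5% called, against 29.3% of all genes), with a median of 0.31. Against wild type PBS on the same slide 0 of the 22 passed limma's adjusted test, and 7 had an unadjusted p under 0.05. Mmp12, the macrophage elastase, rose by 1.37 ± 0.39 (limma, adjusted p = 0.0189), from -4.01, -4.87, -4.01 and -3.28 to -2.0, -3.90, -2.72 and -2.06. Clec7a, a receptor for fungal glucans, rose by 0.95 ± 0.24 (adjusted p = 0.0106), the integrin Itgax by 0.61 ± 0.20 (adjusted p = 0.0355) and the annexin Anxa2 by 0.54 ± 0.09 (adjusted p = 0.00142). With age Lilrb4a, an inhibitory receptor of myeloid cells, was the 1 gene of the 22 that passed (0.62 ± 0.12, adjusted p = 0.00766). Without the pair of arrays that stood apart, 10 of the 22 were higher with DT in ARF-DTR lung. Over the 142 measured genes of all 8 pathway lists, 47 rose and 5 fell with DT in ARF-DTR lung, where 29.3% of all genes were called. With age 4 rose and 5 fell, where 6.14% of all genes were called. Against wild type PBS 4 were higher and 1 lower, where 5.51% of all genes were called. In wild type lung 0 of the 142 passed limma's adjusted test with DT, where 0.176% of all genes were called, and 32 had an unadjusted p under 0.05.

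Summed macrophage markers had higher group means with DT than with PBS, as most members had. A sum is carried by its brightest markers, so the median log2 difference over the markers is given beside it. With DT in ARF-DTR lung this median was 0.47 for the macrophage and 0.24 for the interstitial markers. With DT in wild type lung it was 0.26 for the macrophage, 0.50 for the alveolar macrophage and -0.01 for the interstitial markers. The summed signal of 7 of 7 macrophage markers was 141 to 170 times the 75th percentile at 2 months, 147 to 174 in ARF-DTR PBS, 215 to 264 in ARF-DTR DT, 172 to 201 in wild type PBS and 203 to 273 in wild type DT. That of 9 of 10 alveolar macrophage markers (Siglec5 was not matched) was 287 to 310 at 2 months and 244 to 395 in ARF-DTR PBS. It was 392 to 527 in ARF-DTR DT, 288 to 314 in wild type PBS and 410 to 562 in wild type DT. The 395 of ARF-DTR PBS belonged to replicate 4 and the 562 of wild type DT to replicate 1. The sum over 6 of 8 markers of interstitial and monocyte-derived macrophages was 20.8 to 28.5 at 2 months and 23 to 29.97 in ARF-DTR PBS. It was 26.5 to 34.8 in ARF-DTR DT, 26.2 to 27.8 in wild type PBS and 31.8 to 34.7 in wild type DT. With DT in ARF-DTR lung 5 of the 9 alveolar macrophage markers rose (55.6%), with a median of 0.61. So did 2 of the 7 macrophage markers (28.6%) and 2 of the 6 interstitial ones (33.3%), where 15.9% of all genes were called higher. Chil3, a chitinase-like protein abundant in alveolar macrophages, rose by 0.88 ± 0.21 (limma, adjusted p = 0.0079), from 6.98, 6.92, 6.80 and 7.78 to 7.95, 7.74, 8.21 and 8.09. Ear1 rose by 0.76 ± 0.14 (adjusted p = 0.00188), Ear2 by 0.71 ± 0.13 (adjusted p = 0.00171), the lysozyme Lyz2 by 0.86 ± 0.13 (adjusted p = 0.000893) and the membrane protein Ms4a7 by 1.08 ± 0.24 (adjusted p = 0.00528). The 2 genes of the interstitial list that rose were Ms4a7 and Mrc1 (0.66 ± 0.18, adjusted p = 0.0145). Mrc1 is thus part of the interstitial sum. It ran close over the arrays to Atp6v0d2, which is enriched in alveolar macrophages (given below). The rise of Mrc1 can therefore not be assigned to interstitial macrophages here. Against wild type PBS on the same slide, 0 of the 9, 7 and 6 markers passed limma's adjusted test, where 5.51% of all genes were called. Of these markers, 5, 5 and 2 had an unadjusted p under 0.05. With DT in wild type lung 0 passed either, where 0.176% of all genes were called, and 6, 3 and 2 had an unadjusted p under 0.05. The part of macrophage number in the members' differences was not tested.

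**Figure D3:**
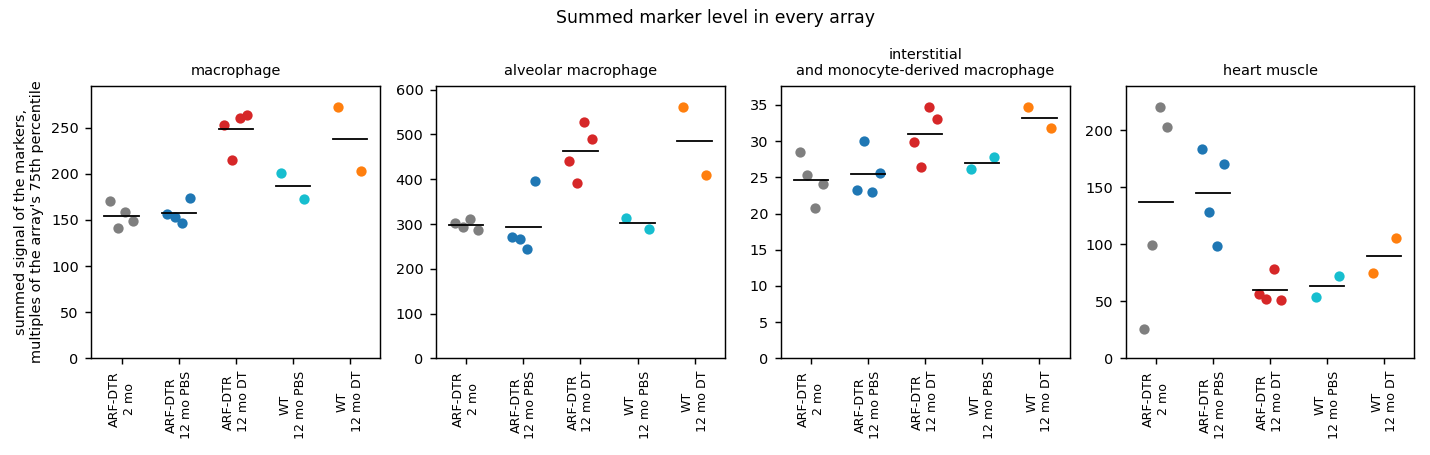
Summed signal of the markers of 4 cell types (in multiples of the array's 75th percentile) in every array, by group, with 1 point per array and the group mean as a line. Alveolar macrophage markers sum to 392 to 527 in the ARF-DTR DT arrays and to 244 to 395 in the ARF-DTR PBS arrays, and the heart muscle markers to 50.9 to 78.7 and 98.6 to 184 in these groups.

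Markers of other cells were also measured. All 4 markers of alveolar type 2 cells rose with DT in ARF-DTR lung, where 15.9% of all genes were called higher. The summed signal was 1003 to 1152 with DT against 736 to 836 with PBS. At 2 months it was 752 to 896. The wild type groups, at 931 to 1046 with PBS and 931 to 1050 with DT, overlapped. Every array of slide 2 thus lay above every array of slide 1. Against wild type PBS on the same slide, 0 of these 4 markers passed limma's adjusted test, where 5.51% of all genes were called. Of 6 endothelial markers, 1 rose (Gpihbp1, by 0.33 ± 0.07, adjusted p = 0.00517) and 1 fell (Kdr, by 0.62, adjusted p = 0.000875) with DT in ARF-DTR lung by limma. This was 33.3% called, against 29.3% of all genes. With age 4 of the 6 fell (66.7%), where 3.41% of all genes were called lower. Without the pair of arrays the age median of the 6 was -0.26, as with them, but 0 of the 6 were past the call of limma. Their sum was 148 to 165 at 2 months and 124 to 148 in ARF-DTR PBS. Adipocytes, which express Lpl, Cd36 and Fabp4, had 7 of 8 markers measured, with a sum of 7.84 to 101 at 2 months, 13.8 to 43.3 in ARF-DTR PBS and 10.9 to 49.8 in ARF-DTR DT. Heart muscle, also rich in Lpl and Cd36, had 5 of 5 markers measured. Their sum was 25.7 to 221 at 2 months, 98.6 to 184 in ARF-DTR PBS, 50.9 to 78.7 in ARF-DTR DT, 54.2 to 71.9 in wild type PBS and 74.5 to 105 in wild type DT. Neutrophil markers (6 of 6) summed to 78.1 to 188 at 2 months, 120 to 212 in ARF-DTR PBS, 108 to 202 in ARF-DTR DT, 320 to 357 in wild type PBS and 80 to 274 in wild type DT. The part of these cells in the members' differences was not tested.

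Trem2, Ctsk and Atp6v0d2 rose and fell with macrophage genes from array to array, also within groups when all 16 arrays were kept. By Pearson's coefficient over the 16 arrays among 17440 genes, the genes most like Trem2 were Ctss (0.98), the pore-forming protein Mpeg1 (0.97) and the lysosomal glycoprotein Cd68 (0.96). After the group means were subtracted the coefficients were 0.94, 0.97 and 0.96, with the pair of arrays that stood apart included. Without the pair, and without that subtraction, they were 0.98, 0.98 and 0.98. Mpeg1 was higher with DT than with PBS in ARF-DTR lung by 0.92 ± 0.15. Most like Gpnmb were Stra6l (0.96), Tnfrsf26 (0.93) and Awat1 (0.93), with 0.97, 0.94 and 0.91 after the group means were subtracted. Awat1 was below the range of probes well above background on most arrays. Stra6l was at -2.31, -2.84, -3.25 and -1.39 with PBS in ARF-DTR lung, and at 0.02 and -3.05 with DT in wild type lung, so the same pair of arrays was high. Without that pair, over 14 arrays, the coefficients with Gpnmb were 0.90, 0.75 and 0.80. Cd68 and Stra6l were also among the 3 genes most like Ctsk (0.96 and 0.94, and 0.92 and 0.90 without the pair). Spp1 differed. Among its nearest genes were Nrn1 (0.92) and Alkal1 (0.91), and after the group means were subtracted these coefficients were 0.33 and 0.48, so their likeness lay mostly between groups. Nrn1, a neurite growth factor, was at 0.44, 0.23, 0.60 and 0.29 at 2 months and 1.01, 1.02, 1.54 and 1.43 at 12 months with PBS. For Apoe the highest coefficient with any gene was 0.95, and for that gene it was 0.60 after the group means were subtracted. The points of each coefficient share arrays, slides and scaling, and the coefficients are a description only.

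**Figure D4:**
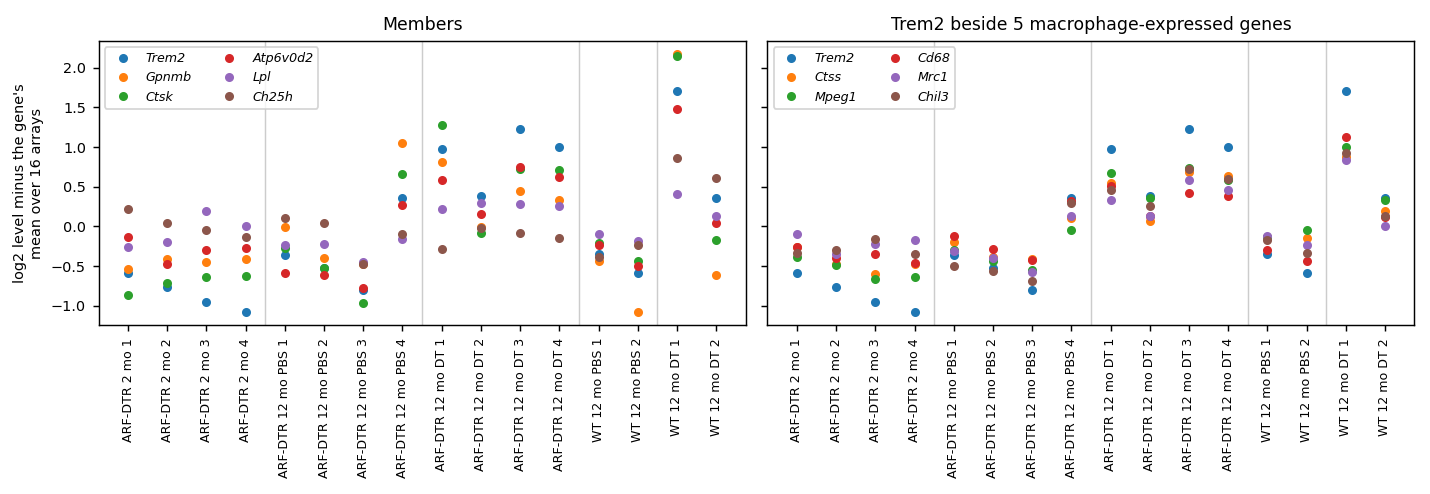
Log2 level of 6 members (left) and of Trem2 beside 5 macrophage-expressed genes (right) in each of the 16 arrays, minus the gene's mean over the arrays; vertical lines part the groups. Wild type DT replicate 1 stands highest for Trem2, Gpnmb, Ctsk and Atp6v0d2, ARF-DTR PBS replicate 4 stands above the rest of its group for the same genes, and the macrophage-expressed genes are high in the same arrays.

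Taking out ARF-DTR PBS replicate 4 and wild type DT replicate 1 together, an alternative added after seeing the data, turned which genotype had the larger DT difference in Trem2, Gpnmb, Ctsk, Atp6v0d2 and Spp1. The pair was picked because members were high on it. Leaving out a high PBS array raises the ARF-DTR difference, and leaving out a high DT array lowers the wild type one. The direction of the turn was thus set by the choice, and no conclusion is drawn from it. In ARF-DTR lung the DT differences without the pair were 1.46 for Trem2, 0.69 for Gpnmb, 1.24 for Ctsk, 1.19 for Atp6v0d2 and 0.61 for Fabp5. They were 0.57 for Apoe, 0.56 for Lpl, 0.40 for Spp1, 0.20 for Cd36 and -0.02 for Ch25h. In wild type lung, where 1 DT array was left, the differences were 0.83 for Trem2, 0.41 for Atp6v0d2, 0.27 for Lpl, 0.24 for Apoe, 0.15 for Ctsk and 0.14 for Gpnmb. They were 0.92 for Ch25h, 0.12 for Spp1, -0.10 for Cd36 and -0.27 for Fabp5. The genotype difference in the response of Trem2 was -0.27 ± 0.51 with all arrays and 0.63 without the pair, and that of Gpnmb was -1.18 ± 0.83 and 0.55. Neither was past the call in either fit. The differences of DT-treated ARF-DTR from wild type PBS lung hold neither array of the pair. They were unchanged, as in Trem2 (1.36) and Apoe (0.39).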

How the data were processed

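Lung RNA of 16 samples was measured on single-colour Agilent arrays, read with Agilent Feature Extraction 10.10.1.1 per the submitters' processing notes. Per the file headers, the deposited signal is an intensity that was already background-subtracted and detrended, not scaled between arrays, on probes placed on mm9. The deposited flags served as filters, and the mean and background intensities served for normexp. In the series matrix the authors deposited log2 values, each equal to the log2 signal less a constant of its array. The sources used here do not give the other steps of the authors.

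Groups came from titles, source names and treatments, which match each other. The free-text label of 1 wild type PBS sample disagrees, as the report says. Whether each sample is a mouse of its own is not in the labels, and p-values here reflect only sample-to-sample spread, part or all of which may be technical. Same-numbered samples of different groups deviated together weakly at most. Their correlations ran from -0.199 to 0.33, with 6 of 26 pairs over 0.1, and 15 of 26 pairs correlated best with their own number. The numbers were not used as pairs in the main fit, and a replicate block was among the alternatives.

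Each array had 59305 spots of 55681 probes. Control spots and outlier spots (105 to 171 per array) were left out, 0 spots were saturated, and spots of a probe were averaged. The log2 signal minus the array's 75th percentile was used. Probes well above background on at least 4 of 16 arrays were kept (37037), and the brightest stood for each of 25574 genes. Probes were named by accession (27656), symbol (3401), synonym (321) or otherwise by the file (24303). limma 3.58.1 in R 4.3.3, with data.table (1.17.8) and jsonlite (2.0.0), fitted 1 mean per group over all arrays, with two-sided moderated tests. A gene is called when its p, adjusted by Benjamini-Hochberg over the 25574 genes, is under 0.05. Values after ± beside a difference are standard errors of that fit. The fit was tested on simulated data. The number of arrays limits the precision.

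The members, the 18 gene lists (201 genes, 8 of pathways and 10 of cell type markers) and the alternatives were chosen with earlier results of these data known. Named genes are all members, up to 4 called genes with the largest difference per list and comparison, and the 3 genes most like Trem2, Gpnmb and Spp1, with those also named for another member; 1 of these genes is not reported here. The alternatives were other scalings, background correction, filters, probe averaging, the authors' table, a variance trend, a replicate block, smaller fits and leaving out each array.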

Additional observations from a re-analysis of the deposited data

Results flagged for a closer look

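The Spp1 level of ARF-DTR 12-month PBS replicate 1, at 1.834, lay far below the other 3 arrays of its group, which stood at 2.10, 2.09 and 2.07. It was the 1 of 30 sets of 4 arrays (member and group) with such a gap, and chance alone gives about 1 in 20.

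The DT response of Ch25h differed between the genotypes by -1.073 (log2, ARF-DTR minus wild type), by the interaction term of the limma fit. The levels were -0.32 and -0.17 with PBS and 0.92 and 0.67 with DT in wild type lung, and 0.16, 0.11, -0.42 and -0.04 with PBS and -0.22, 0.03, -0.02 and -0.09 with DT in ARF-DTR lung. The ARF-DTR groups lay on different slides and the wild type groups on the same slide, and the part of the slide in this difference was not tested.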

How the results depend on the processing

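Of the 80 member differences (10 genes, 8 comparisons), 19 were past the call, and all 19 kept their sign in all 27 settings, main included. In every setting 7 stayed past it: Trem2, Lpl and Apoe for DT in ARF-DTR, Spp1 for age, and Trem2, Spp1 and Apoe for DT-treated against 2-month. All of these but the age difference also compare the slides. Of the 61 others, 48 were past it in no setting. No fit had the slide as a block, because no group spans both slides. Leaving out each array in turn gave 920 to 1776 called genes for age (1 to 2 members), 5382 to 8184 for DT in ARF-DTR (3 to 6), 21 to 232 for DT in wild type (0 to 4), 226 to 1109 for the genotype difference in the response (0 to 1), 6039 to 8352 for DT-treated against 2-month (3 to 8), 2317 to 6704 for genotype with PBS (0 to 1), 201 to 1692 for DT-treated ARF-DTR against wild type PBS (0 to 2) and 78 to 297 for genotype with DT (0 to 1). The lowest values came without wild type PBS replicate 1 for genotype with PBS (2317) and against wild type PBS (201). Scaling to the array median gave 26 genes and 0 members for DT in wild type and 0 members for the genotype difference, and quantile normalisation 0 members for genotype with PBS. Median scaling split the calls into 527 higher and 1451 lower for age, 4875 and 2555 for DT-treated against 2-month, and 887 and 497 against wild type PBS, and moved the median of all genes by up to 0.183. Normexp background correction gave 20 genes for DT in wild type, 1948 for the genotype difference and 122 for genotype with DT. With no filter there were 1 member for age, 288 genes for the genotype difference, 0 members against wild type PBS and 3539 genes for genotype with DT. With the replicate number as a block there were 0 members against wild type PBS, and 89 genes and 0 members for genotype with DT; 15 of 26 pairs correlated best with their own number. Fits of only the groups compared gave 960 genes and 1 member for age, 0 and 0 for DT in wild type, 368 and 0 against wild type PBS, and 6 and 0 for genotype with DT. Without both arrays that stood apart, added after seeing the data, there were 1030 genes and 1 member for age, 8 members for DT in ARF-DTR, 125 genes and 0 members for DT in wild type, 0 members for the genotype difference, 4 members against wild type PBS and 0 for genotype with DT. The causes were not tested. No inference is drawn from the member counts, because the members were chosen with the comparisons known. The shares of all genes called in the main fit stand beside the member counts further above.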

Other observations

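Of the genes nearest to each member in shape over the 16 arrays, Mrc1, the macrophage mannose receptor, was the closest, to Atp6v0d2. Mrc1 is also on the list of interstitial macrophage markers, and Chil3 on that of alveolar macrophages. Both were chosen for naming here after their values were seen. Pearson's coefficient with Atp6v0d2 was 0.99 for Mrc1 and 0.97 for Chil3, and after the group means were subtracted it was 0.98 and 0.93. Without ARF-DTR PBS replicate 4 and wild type DT replicate 1, over 14 arrays, the coefficients were 0.99 and 0.98. The Mrc1 levels were 2.28, 2.18, 2.01 and 2.72 in ARF-DTR PBS, 2.91, 2.71, 3.16 and 3.03 in ARF-DTR DT, 2.46 and 2.34 in wild type PBS, and 3.42 and 2.59 in wild type DT.

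Awat1, an acyltransferase of wax ester synthesis and one of the genes most like Gpnmb, stood at -1.23 in ARF-DTR PBS replicate 4, at 0.48 in wild type DT replicate 1 and at -2.77, -3.88 and -4.98 in 3 of the ARF-DTR DT arrays. On all other arrays it was below the lowest level of any probe well above background there, so that those values are only bounds. Ch25h was the member with the weakest neighbours: its highest coefficient, with Phf19, was 0.81, and 0.53 after the group means were subtracted.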
